A study of Homo sapiens with 23 samples.

Results

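The regions described here are those at which SVIL, LSD1+8a and LSD1 were all found by ChIP-seq on day 3 of BDNF treatment in SH-SY5Y, an established line of human neuroblastoma cells used as a culture model of neurons. The peaks of 5 lists were pooled, peaks that overlapped by at least 1 bp were merged into 32188 regions, and the 228 regions with a peak from each of the 3 day 3 lists were kept. Membership thus rests on the peak calls of these 3 lists, whose values are given below as a description and without a test. The 2 LSD1 lists of day 0 played no part in the choice, except that a day 0 peak could join neighbouring peaks into 1 region.

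All cells were grown with 10 µM retinoic acid for 4 days before BDNF at 50 ng/mL in medium without serum, which was given for up to 3 days. The 3 day 3 libraries (SVIL, LSD1+8a, LSD1) and 1 LSD1 library of day 0 came from cells infected with control shRNA, and the other LSD1 library of day 0 from cells infected with LSD1+8a shRNA, called knockdown cells below. The labels do not say whether the infected cells were pools or clones. Each group is 1 library, so differences between conditions could be neither replicated nor tested. Parentheses after a share hold its exact 95% binomial interval over regions, and intervals of a difference between shares are Newcombe 95% intervals. Both cover counting error only.

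LSD1 (KDM1A) is a demethylase that removes methyl groups from lysines of histone H3 and commonly acts in repressor complexes with CoREST and histone deacetylases. LSD1+8a is a splice form made in neurons, in which a short extra exon lies within the catalytic domain. SVIL (supervillin) is a member of the villin and gelsolin family that binds actin and myosin, and is also found in nuclei. The series design names SVIL as a cofactor of LSD1+8a. The LSD1+8a antibody was a homemade polyclonal one. Whether the LSD1 antibody also binds the splice form was not tested, so overlap of the LSD1+8a and LSD1 lists does not tell 2 separate proteins from 1. Libraries that test the SVIL and LSD1+8a antibodies in knockdown cells belong to the series and were not analysed here.

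The 228 regions held 244 of the 1452 SVIL peaks (16.8%, 14.9 to 18.8), 230 of the 3378 LSD1+8a peaks (6.81%, 5.98 to 7.71) and 231 of the 20748 LSD1 peaks of day 3 (1.11%, 0.975 to 1.27). Their median length was 1582 bp, with a range of 698 to 5604 bp. In 202 of them each list had at most 1 peak. SVIL had several peaks in 13 regions, with 4 in a region on chromosome 8 (23004357 to 23008135) and 3 in one on chromosome 4 (174439975 to 174445339). Positions are in build hg19. They carry no gene names and no sequence, because the gene models and genome sequence of that build were not used here.

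At these regions LSD1 stood out more within its own list than did SVIL or LSD1+8a within theirs. For each list, the region was given the values of its best scoring peak. The LSD1 peaks of day 3 had a median of 115.5 tags (reads assigned to the peak), with a range of 25 to 3197, against a median of 50 over all peaks of that list. LSD1+8a peaks had a median of 48 tags (15 to 1488), against 38 over the list, and SVIL peaks a median of 22.5 (12 to 1093), against 20. The 597 regions of SVIL and LSD1 without LSD1+8a shared this trait, with medians of 92 LSD1 tags and 19 SVIL tags. At the 1780 regions of LSD1+8a and LSD1 without SVIL the medians were 61 for LSD1 and 38 for LSD1+8a. By the authors' score, 126 of the 228 LSD1 peaks were in the top 10% of their list, whereas 20 LSD1+8a peaks and 21 SVIL peaks were. The rule used all 3 lists, and the regions hold 1.11% of the LSD1 peaks but 6.81% of LSD1+8a and 16.8% of SVIL peaks. These unequal shares limit the comparison between lists, and their part in it was not tested.

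Fold enrichment, a ratio made by the authors' peak caller, gave another order. It exceeded the median of the list at 165 of 228 regions for LSD1 (median 25.6, list median 17.05), but at 86 for LSD1+8a (median 13.4, list median 15.2) and 99 for SVIL (median 17.9, list median 18.2). Peaks were also longer than in the lists as a whole, with medians of 1398 bp for LSD1 (list median 1044), 909 bp for LSD1+8a (831) and 349.5 bp for SVIL (314). The rule asks for overlap, which longer peaks meet more readily, so these lengths are a description. Across the 228 regions, tags of SVIL and LSD1 were only loosely related (Spearman's rho 0.44), as were those of LSD1+8a and LSD1 (0.43) and of SVIL and LSD1+8a (0.32). These coefficients are descriptions over regions that share their libraries, and tags also vary with peak length.

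A group of 6 regions stood apart, being in the top 1% of tags in all 5 lists. The region on chromosome 21 (9825316 to 9827962) had 1093 SVIL tags, 1488 LSD1+8a tags and 3197 LSD1 tags on day 3, and 2704 and 2521 LSD1 tags on day 0 in control and knockdown cells. Of the others, chromosome 1 carried the region from 156185832 to 156186811 and that from 91852414 to 91853273. The remaining ones were from 26188532 to 26190812 on chromosome 20, from 85194634 to 85195398 on 11 and from 33477739 to 33478810 on 17. Their SVIL folds were only 5.38 to 6.75, at or near the bottom of a list whose lowest fold was 5.38, although they had 105 to 1093 SVIL tags. High tags with all antibodies and in both kinds of cell follow from how these regions were picked and are no separate result. Folds below the list median were found in all 6 regions for SVIL. LSD1+8a folds ranged from 5.48 to 15.7, below the list median of 15.2 in all but the chromosome 20 region. LSD1 folds on day 3 ranged from 8.04 to 27.3. Only the regions on chromosome 20 (27.3) and from 156185832 on chromosome 1 (24.0) were above the list median of 17.05. The inputs were not examined there. Of all 228 regions, 26 had a fold below the list median in all 3 day 3 lists, and the shares given below are also computed without the 6.

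Regions were ordered by the worst of their 3 ranks in the day 3 lists, each rank divided by the length of its list. Outside that group, the first in this order was on chromosome 17 (76249931 to 76250963). It had 214 SVIL tags at a fold of 94.4, the first score of the SVIL list, 97 LSD1+8a tags at a fold of 51.7 and 116 LSD1 tags at a fold of 67.1. On day 0 it had 86 LSD1 tags in control and 81 in knockdown cells. A region on chromosome 11 (62608427 to 62609971) had 124 SVIL tags, 62 LSD1+8a tags and 192 LSD1 tags, and 69 and 70 LSD1 tags on day 0 in control and knockdown cells. In both regions the day 0 libraries differed by few tags. Another, on chromosome 17 (61508413 to 61511746), had 40 SVIL, 103 LSD1+8a and 260 LSD1 tags, with 75 tags in control and 44 in knockdown cells on day 0. Among the 10 best were also a region on chromosome 2 (9386884 to 9390155), with 35, 86 and 227 tags for SVIL, LSD1+8a and LSD1, and one on chromosome 1 (219964684 to 219967136), with 36, 75 and 300. The rest of the 10 are 2 of the regions with very high tags and 3 described further on, 2 of them on chromosome 6 and 1 on chromosome 8 (23004357 to 23008135). All 5 lists had a peak in 9 of the 10, and the chromosome 8 region had none in knockdown cells.

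A stretch of 1.82 Mb on chromosome 6 (26025840 to 27841964) held 10 of the 15 regions of that chromosome. Of the 53 regions with an LSD1 peak of day 3 in it, 10 (18.9%, 9.44 to 32.0) also had SVIL and LSD1+8a, against 1.10% of such regions in the genome. The stretch was singled out after its values were seen. As background, the short arm of chromosome 6 carries the largest human cluster of histone genes. Whether these regions lie at histone genes was not tested. In the region from 26187975 to 26189691, SVIL had 27 tags, LSD1+8a 67 and LSD1 166 on day 3, and LSD1 had 68 tags in control and 53 in knockdown cells on day 0. In that from 26122415 to 26125451 the values were 24, 72 and 253 on day 3 and 95 and 35 on day 0. Across the 10 regions SVIL tags varied little, from 21 to 34, while LSD1+8a tags ranged from 23 to 81 and LSD1 tags from 84 to 295. LSD1 was listed on day 0 at all 10 in control cells and at 9 in knockdown cells, the exception being 26284018 to 26286218.

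Elsewhere the regions were mostly scattered. With gaps of at most 250 kb, 28 regions (12.3%) fell into 10 runs. The largest, of 7 regions, belongs to the chromosome 6 stretch (26025840 to 26286218), and the next were 4 regions on chromosome 11 (72031908 to 72124001) and 3 on chromosome 2 (47288058 to 47467306). The 4 regions on chromosome 11 had 16 to 32 SVIL tags, 32 to 60 LSD1+8a tags and 85 to 167 LSD1 tags. LSD1 on day 0 was listed at 3 of these 4 in control cells and at 1 in knockdown cells.

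The day 3 summits lay close together within a region. The rule requires overlapping peaks, which limits how far apart summits can lie, so distances and nesting are descriptions without a test. The distance between the SVIL and LSD1 summits had a median of 89.5 bp (quartiles 36 and 170.5), and that between SVIL and LSD1+8a 101.5 bp (43.75 and 217.5). LSD1+8a and LSD1 summits were 68 bp apart (24.75 and 139). Chromatin had been sheared to fragments of 300 to 800 bp, so distances of this size do not resolve an order of the proteins. The SVIL summit lay within the LSD1 peak in 227 of 228 regions and within the LSD1+8a peak in 218. In 138 regions the SVIL peak lay wholly inside the LSD1+8a peak and this one wholly inside the LSD1 peak. SVIL lay on the side of higher coordinates of LSD1 in 104 regions and of lower coordinates in 123.

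**Figure D1:**
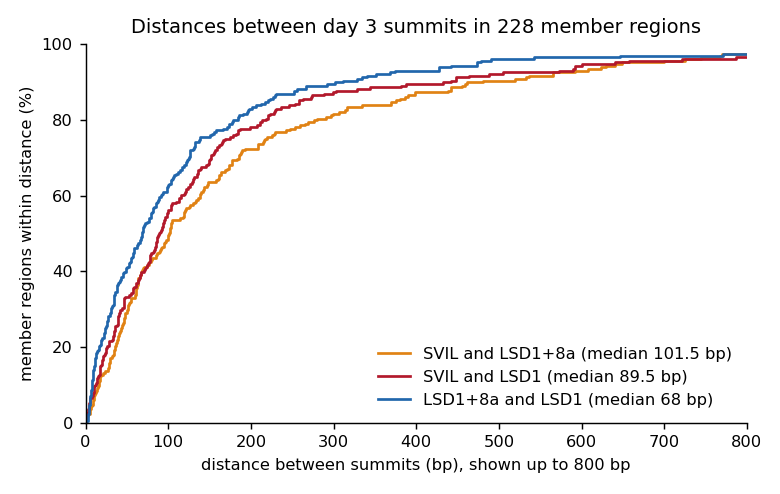
Cumulative share of the 228 regions (vertical axis, %) by the distance between the day 3 summits (horizontal axis, bp, shown up to 800 bp) for the 3 pairs of lists. The line for LSD1+8a and LSD1 lies to the left of the others, with a median of 68 bp against 89.5 and 101.5 bp for the pairs with SVIL.

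The distance between the LSD1+8a and LSD1 summits had a median of 68 bp (95% interval of the median 55 to 83). In the 1780 regions with these 2 proteins and no SVIL peak it was 89 bp (81 to 96). The intervals overlap slightly, which does not decide whether the medians differ, and the difference was not tested. Distances over 500 bp occurred in 9 of the 228 regions and in 182 of the 1780. The distance between SVIL and LSD1 was not shorter than in the 597 regions of SVIL and LSD1 without LSD1+8a, with 89.5 (78 to 104) against 75 bp (65 to 84). The 3 summits spanned at most 100 bp in 78 regions and over 500 bp in 29. They spanned 6 bp in a region on chromosome 10 (80192720 to 80194624), 9 bp in another on chromosome 10 (29781796 to 29782731) and 10 bp in one on chromosome 2 (26924679 to 26925890). The widest spans were 2172 bp on chromosome 7 (12129264 to 12132500) and 1873 bp on chromosome 15 (74583062 to 74586768).

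At least 1 base was covered by all 3 day 3 lists in 223 regions, with a median common stretch of 344 bp and a shortest one of 67 bp. The other 5 regions were joined by peaks that overlap in a chain. They include the chromosome 6 region from 26122415 to 26125451 and the chromosome 7 region with the widest span. Just outside the rule were 7 regions of SVIL and LSD1 with an LSD1+8a peak within 1 kb, the nearest 175 bp away on chromosome 2 (29338718 to 29339896). A further 7 regions of LSD1+8a and LSD1 had a SVIL peak within 1 kb, the nearest 239 bp away on chromosome 15 (50646676 to 50648148).

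The day 0 lists asked whether LSD1 was already present at these regions before BDNF. In control cells it was listed at 184 of 228 (80.7%, 75 to 85.6). Of all 20693 regions with an LSD1 peak on day 3, the share was 40.0%. Among regions of SVIL and LSD1 without LSD1+8a it was 67.0% (63.1 to 70.8), which is 13.7 points lower (7.0 to 19.7). Among regions of LSD1+8a and LSD1 without SVIL it was 66.3% (64.1 to 68.5), 14.4 points lower (8.34 to 19.5). Where all 3 proteins were found on day 3, LSD1 was thus listed on day 0 more often than where either partner was missing, by more than the counting error when strength is not considered. With the lowest SVIL score applied to all lists, the difference from regions without LSD1+8a was 26.3 points (17.1 to 33.5). That setting drops weak peaks of the other lists and so redraws both groups, to 108 and 602 regions. A smaller difference, without regions in the top 1% of tags of any list, is given below.

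Part of the difference moved with the strength of the LSD1 peak on day 3. When the comparison regions were weighted to the same deciles of LSD1 day 3 score, their shares were 75.2% without LSD1+8a and 69.5% without SVIL. Before weighting they were 67.0% and 66.3%. In the top decile, which held 126 of the 228 regions, the share with all 3 proteins was 82.5%, below the 87.8% of regions without LSD1+8a and above the 75.3% of those without SVIL. What was left of the difference from regions without LSD1+8a after weighting thus came from the lower deciles. These held 4 to 32 of the 228 regions each, and in 8 of them the share was higher with all 3 proteins. At the same deciles of LSD1 day 3 peak length, the shares of the comparison regions were 68.8% without LSD1+8a and 67.9% without SVIL. Without the 6 regions of very high tags in all lists, the share and both differences changed little, as the closing section gives. That exclusion was chosen after the data were seen. The planned one, without regions in the top 1% of tags of any list, lowered all 3 values more. The share was then 75.3% of 178 regions. It exceeded that of regions without LSD1+8a by 10.995 points (3.13 to 18.1) and that of regions without SVIL by 10.3 (3.14 to 16.5). The day 0 titles end in a library number and the day 3 titles used here do not, and the input of each list is not stated, so day, library batch and input cannot be told apart.

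**Figure D2:**
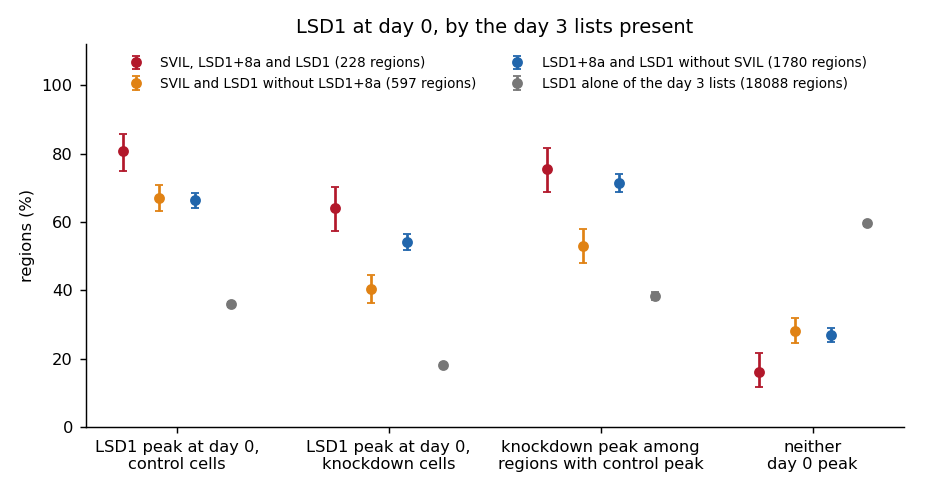
Share of regions (%) with an LSD1 peak at day 0 in control cells, in knockdown cells, in knockdown cells among regions with a control peak, and in neither, for regions grouped by the day 3 lists present. Points are shares and bars exact 95% intervals; with all 3 proteins 80.7% of regions had a control peak and 16.2% neither.

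In knockdown cells, LSD1 was listed on day 0 at 146 of the 228 regions (64.0%, 57.4 to 70.3), against 22.4% of all regions with an LSD1 peak on day 3. The share was 40.4% (36.4 to 44.4) without LSD1+8a, 23.7 points lower (16.1 to 30.8), and 54% (51.7 to 56.4) without SVIL, 9.99 points lower (3.17 to 16.4). This last interval includes 0 when weaker peaks are left out or when regions in the top 1% of tags of any list are, with differences of 3.79 to 6.29 points.

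Of the 184 regions with a control peak on day 0, 139 also had a knockdown peak (75.5%, 68.7 to 81.6), against 44.6% of all regions with LSD1 on day 3 and in control cells on day 0. Both peaks were thus listed at 61% of the 228 regions, against 17.8% of all regions with an LSD1 peak on day 3. The share of control peaks with a knockdown peak was 53% (48.0 to 58) at regions of SVIL and LSD1 without LSD1+8a, 22.5 points lower (14.3 to 30.0). It was 71.5% (68.8 to 74.0) at regions of LSD1+8a and LSD1 without SVIL, a difference of 4.08 points (-3.07 to 10.3) that does not exceed counting error and turns negative, to -5.74 or -7.65, when weaker peaks are left out. Weighted to the same deciles of LSD1 score in control cells on day 0, a comparison chosen after the data were seen, the shares were 58.4% without LSD1+8a, 75.2% without SVIL and 56.2% at regions with LSD1 alone on day 3. Read totals of the libraries are unknown, and the knockdown list is the shorter one, with 10248 against 16882 peaks.

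At the 139 regions with both day 0 peaks, tags were fewer in knockdown cells at 94, more at 44 and equal at 1. The ratio of knockdown to control tags had a median of 0.873 (quartiles 0.692 and 1.06). Over all 7070 regions with both peaks the median was 0.938, and at regions of LSD1+8a and LSD1 without SVIL it was 0.962. Lower medians were found at regions with LSD1 alone on day 3 (0.85) and at regions of SVIL and LSD1 without LSD1+8a (0.809). Ratios in all of these were formed from tags that were not scaled for depth, so only their order within the same pair of libraries can be read. The lowest ratios were at chromosome 1 (234676972 to 234681178), with 87 tags in control and 30 in knockdown cells, and at the 2 chromosome 6 regions from 27838543 to 27841964 (128 and 46) and from 26122415 to 26125451 (95 and 35). The highest was at chromosome 3 (49058508 to 49059979), with 22 tags in control and 44 in knockdown cells. At each of these 4 the tags are those of the best scoring peak in the region, whose position can differ between libraries.

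**Figure D3:**
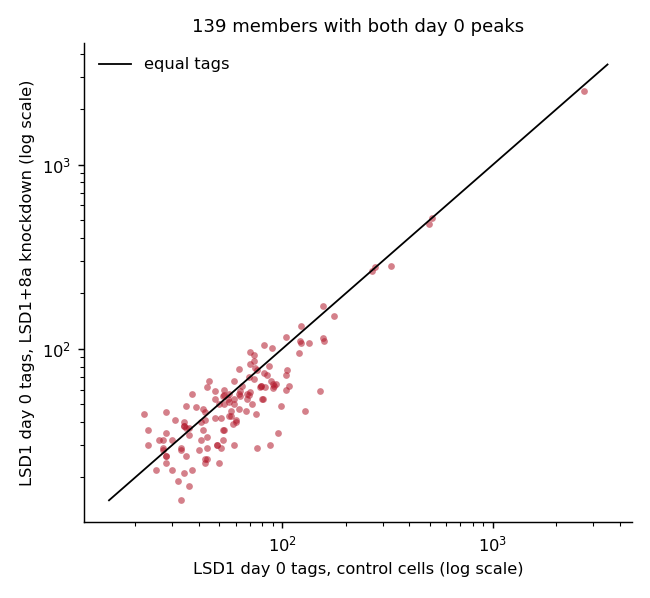
LSD1 tags on day 0 in knockdown cells (vertical, log scale) against control cells (horizontal, log scale) at the 139 regions with both peaks, 1 point per region, with a line of equal tags. Most points (94 of 139) lie below the line, and the regions with over 250 tags in both libraries lie close to it.

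A peak of control cells without one of knockdown cells was found at 45 regions, and the reverse at 7. The strongest of the 45 on day 0 were 2 neighbouring regions of chromosome 8. That from 23004357 to 23008135 had 1802 LSD1 tags at a fold of 218 on day 0, but 80 LSD1 tags at a fold of 38.4, 40 LSD1+8a tags and 29 SVIL tags on day 3. That from 23011175 to 23012869 had 692 LSD1 tags at a fold of 137 on day 0 and 61, 26 and 29 tags for LSD1, LSD1+8a and SVIL on day 3. In both, day 0 in control cells was far above the other libraries listed there. The next, on chromosome 10 (29781796 to 29782731), had 57 LSD1 tags at a fold of 68.7 in control cells on day 0, and 76 LSD1, 22 LSD1+8a and 62 SVIL tags on day 3. Its SVIL fold of 114.9 was the highest of the SVIL list. As background, the SVIL gene lies on the short arm of chromosome 10, and whether this region lies in it was not tested.

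At the 7 regions with a knockdown peak alone, LSD1 had 16 to 44 tags on day 0 in knockdown cells. Their SVIL tags on day 3 ranged from 16 to 25 and their LSD1+8a tags from 28 to 58. An example is the region on chromosome 13 (114198082 to 114199506), with 26 knockdown tags on day 0 and 17 SVIL, 45 LSD1+8a and 117 LSD1 tags on day 3.

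No day 0 peak was listed at 37 of the 228 regions (16.2%, 11.7 to 21.7), against 55.5% of all regions with LSD1 on day 3. Among these, LSD1 on day 3 was still high in its list, with a median of 93 tags and a median rank in the top 11.4%, against 117 tags and the top 7.78% at the 139 regions with both day 0 peaks. LSD1+8a ranked lower, at a median of 68.2% from the top of its list (quartiles 42.3 and 79.5) against 31.9% (15.9 and 57.3). SVIL lay between these, at 52.3% (36.6 and 65.4) against 34.2% (17.1 and 60.6). The best ranked of the 37 was on chromosome 10 (70426548 to 70427245), with 45 SVIL tags at a fold of 54.5, 26 LSD1+8a tags and 47 LSD1 tags. A region on chromosome 1 (222038483 to 222040006) had 35 SVIL, 93 LSD1+8a and 195 LSD1 tags. The next were from 16402279 to 16403404 on chromosome 6, the chromosome 2 region with a summit span of 10 bp, and from 106164332 to 106165388 on chromosome 4, with 51 to 98 LSD1 tags. A missing peak does not show that LSD1 was absent on day 0, since the depth of that library is unknown.

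At the 184 regions with LSD1 in control cells on both days, the ratio of day 3 to day 0 tags had a median of 2.34 (quartiles 1.23 and 3.33). It was 2.65 at regions of SVIL and LSD1 without LSD1+8a, 1.55 at those of LSD1+8a and LSD1 without SVIL and 2.32 at those with LSD1 alone on day 3. These ratios are not scaled for depth, and only their order can be read. Tags of LSD1+8a on day 3 were more closely related to LSD1 tags on day 0, with Spearman's rho of 0.57 over 184 regions in control and 0.64 over 146 in knockdown cells, than to LSD1 tags on day 3 (0.43 over 228). For SVIL the order of tags was the other way, with 0.32 and 0.29 for day 0 and 0.44 for day 3. By fold in place of tags this order of SVIL was not kept, with 0.24 and 0.22 for day 0 and 0.21 for day 3. That of LSD1+8a was kept, with 0.33 and 0.37 for day 0 and 0.22 for day 3. The coefficients are over different numbers of regions that share their libraries, and their differences were not tested.

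The regions were spread unevenly over chromosomes. Chromosome 1 had 38, chromosomes 2 and 7 had 28 each and chromosome 17 had 19. In the order 1, 2, 7 and 17, these were 16.7%, 12.3%, 12.3% and 8.33%, against 10.1%, 8.46%, 6.43% and 4.32% of all regions. Within chromosomes 1, 2 and 17 most lay on one side of the widest gap between regions. There were 27 beyond position 142618551 of chromosome 1, 24 before 80725172 of chromosome 2 and 15 beyond 25536003 of chromosome 17. Of all regions on chromosomes 1, 2 and 17, 1569 of 3253, 1167 of 2723 and 1096 of 1390 lay on the same sides. On chromosome 17 most of all regions thus lay on that side too. With chromosome 7, these 4 parts held 94 of the 228 regions (41.2%, 34.8 to 47.9). They held 37.5% (33.6 to 41.5) of regions of SVIL and LSD1 without LSD1+8a, 22.6% (20.7 to 24.6) of those of LSD1+8a and LSD1 without SVIL and 17.4% (16.8 to 17.9) of those with LSD1 alone on day 3. Of the 36 regions of SVIL and LSD1+8a without LSD1, 9 (25%, 12.1 to 42.2) lay there. Of all SVIL peaks 34.8% (32.3 to 37.3) lay there, against 23.7% (22.3 to 25.2) of LSD1+8a peaks and 18.7% to 19.4% of the peaks in each LSD1 list. The 4 parts were chosen after their values were seen, so these shares are descriptions. As background, SH-SY5Y cells are known to carry extra copies of chromosome 7 and of segments of chromosomes 1, 2 and 17. Copy number was not measured here and its part in the result was not tested. LSD1 in control cells on day 0 was listed at 80.9% (71.4 to 88.2) of the 94 regions inside these parts and at 80.6% (72.9 to 86.9) of the 134 outside. At regions of SVIL and LSD1 without LSD1+8a it was listed at 71.4% (65.0 to 77.2) inside and 64.3% (59.2 to 69.2) outside. For regions of LSD1+8a and LSD1 without SVIL the shares were 65.9% (61.1 to 70.5) and 66.5% (63.9 to 69.0).

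**Figure D4:**
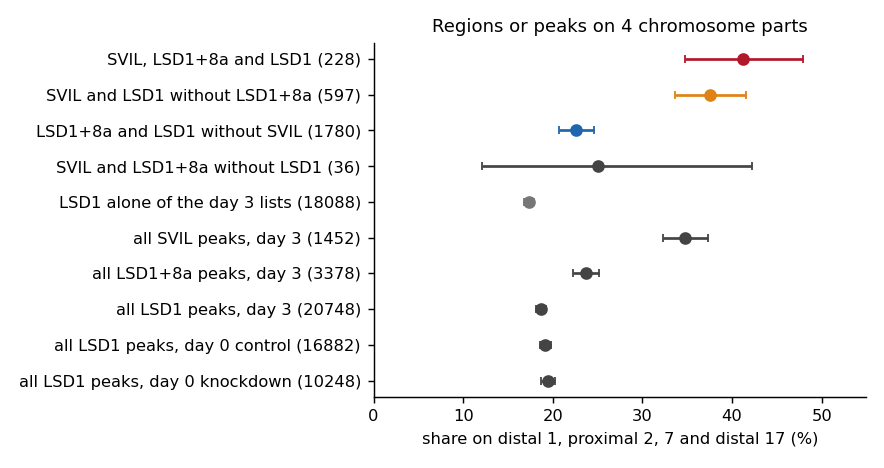
Share of regions or peaks (%, horizontal axis, with exact 95% intervals) on the distal part of chromosome 1, the proximal part of 2, all of 7 and the distal part of 17, for groups of regions and for whole lists, numbers in parentheses. All SVIL peaks and the sets with both SVIL and LSD1 lie at 34.8% to 41.2%, the 36 regions of SVIL and LSD1+8a without LSD1 at 25% with a wide interval, and the sets with no SVIL requirement at 17.4% to 23.7%.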

How the data were processed

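Chromatin was fixed in 1% formaldehyde for 10 minutes and sonicated to 300 to 800 bp. Libraries were cut from a gel at 300 to 600 bp and read from one end for 50 bp, per the labels' protocols. The submitters' processing notes name CASAVA, Bowtie 1.0.0 and the builds hg19 and mm9. Since the lists hold human chromosomes, hg19 was taken as their build. Not given in the sources used here are the caller and its threshold, the input and the read totals. Peaks were called per library. The deposited tags per peak are counts without normalization. Fold enrichment is a deposited ratio that the authors' caller computed. The deposited score, whose column name was lost, ranked the peaks of each list and, in 1 alternative, served as a threshold across lists.

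From these, peaks were merged into regions, and each list's best scoring peak in a region gave its values. With 1 library per group no test across libraries was run. Shares have exact (Clopper-Pearson) and differences Newcombe intervals. PCR copies are not independent, so intervals cover counting error only. The merging was checked on simulated peaks. Named regions are the 10 best by the worst of their 3 day 3 ranks, those with most tags, and the 5 best without any and with both day 0 peaks. Those with extreme summit spans and the 3 strongest without a knockdown peak are also named. Others were named after their values were seen. The members and comparisons were chosen with earlier results of these data known. Genes, motifs and sequences were planned only for a genome of hg19 and were not run. Python 3.11.15, pandas 2.3.3 and SciPy 1.17.1 were used.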

Additional observations from a re-analysis of the deposited data

How the results depend on the processing

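The results were recomputed with merging of the day 3 lists alone, a base covered by all 3 lists, merging over gaps of 1 kb, at least 50% of the SVIL peak inside both other peaks, the upper 50% of each list, the lowest SVIL score applied to all lists, summits within 500 bp, the nearest summits in place of those of the best peaks, autosomes and X only, and no regions in the top 1% of tags of any list. Chosen after the data were seen were leaving out regions in the top 1% of tags of all 5 lists, counting day 0 peaks only at the LSD1 peak of day 3, and leaving out the chromosome 6 stretch. The number of regions fell to 72 in the upper 50% and 108 with the lowest SVIL score, which both use fewer peaks. In the upper 50%, the share with a knockdown peak on day 0 was 54.2%, that among regions with a control peak 64.3%, and the median distance between SVIL and LSD1 summits 77.5 bp. With the lowest SVIL score the share among regions with a control peak was 68.5%. Against regions without SVIL, the difference in the share with a knockdown peak was 6.29 points (-5.80 to 18) in the upper 50%, 3.79 (-6.38 to 13.4) with the lowest SVIL score and 6.10 (-1.62 to 13.5) without regions in the top 1% of tags of any list. The difference from them among regions with a control peak turned to -5.74 (-19.6 to 6.53) and -7.65 (-18.6 to 2.11) in the first 2 of these settings. The causes were not tested. The difference in the control share from regions without LSD1+8a grew to 26.3 points (17.1 to 33.5) with the lowest SVIL score. The difference from regions without SVIL among regions with a control peak was 2.36 points (-6.17 to 9.76) without regions in the top 1% of tags of any list. The other differences kept their direction and their side of 0, and moved by less than 1.5 times, under the settings run. Without the regions in the top 1% of tags of all 5 lists, the control share was 80.2% and the differences from regions without LSD1+8a and without SVIL were 13.2 (6.38 to 19.3) and 13.8 (7.70 to 19) points. No paired analysis was possible because each group has 1 library. Unknown depth limits every statement on a missing peak.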

Other observations

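SVIL and LSD1+8a shared a further 36 regions that had no LSD1 peak on day 3. The nearest LSD1 peak of day 3 was 4743 bp away, at chromosome 17 (4698956 to 4699876). LSD1 was listed on day 0 at 26 of the 36 in control cells (72.2%), against 51.7% of all regions. The share was 67.0% at regions of SVIL and LSD1 without LSD1+8a and 66.3% at those of LSD1+8a and LSD1 without SVIL. Of the 26, 23 also had a knockdown peak (88.5%, exact 95% interval 69.8 to 97.6), against 42.4% of all regions with a control peak. In the same order, the groups just named had 53% and 71.5%. At the 23 regions the median ratio of knockdown to control tags was 1.03. With 1 library per group, these values have no replicate check.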
